A study of Mus musculus with 6 samples.

Results

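The SPARC-related matricellular genes were followed in purified retinal ganglion cells (RGCs), the neurons whose axons form the optic nerve. The group held 10 genes, all of them among the 24060 genes of the count table: Sparcl1, Sparc, Smoc1, Smoc2, Spock1, Spock2, Spock3, Thbs1, Thbs2 and Thbs4. Sparcl1 was selected on its difference between E18 and P5 in these same samples, and the other genes were chosen by their kinship to it. All values of the 10 genes in this contrast are therefore given as a description, with standard errors and without a p-value. The study asked which genes differ between RGCs that extend axons readily, at E18, and RGCs that have lost this ability, at P5. RNA was sequenced from 3 samples of E18 C57BL/6 mice (replicates 1, 3 and 4) and 3 samples of P5 C57BL/6 mice (replicates 6, 8 and 9). Retinas were dissociated with papain, macrophages were removed with antibodies, and RGCs were held on dishes by antibodies against CD90 (Thy1). No genetic or drug treatment was given to either group, and the number of animals behind a sample is not stated.

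Matricellular proteins are secreted into the matrix around cells, where they change adhesion and signalling rather than build a scaffold. SPARC and its relatives share a follistatin-like domain and a calcium-binding domain. The protein of Sparcl1, called hevin, is released mainly by astrocytes in the brain and bridges neurexins and neuroligins across the synapse, and SPARC opposes its effect on synapse formation. The thrombospondins, encoded by the Thbs genes, are astrocyte proteins that induce synapses in cultured RGCs through the calcium channel subunit encoded by Cacna2d1. The Spock genes encode testicans, which are proteoglycans made by neurons, and the Smoc genes encode basement membrane proteins that bind calcium.

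Library depth on genes ran from 81213639 to 114512853 reads, and the 10 genes together took from 0.0698% of the TMM-scaled counts at E18 to 0.161% at P5. The 13 RGC marker genes summed to 7764 to 9180 CPM (counts scaled by TMM to a common library size) in the E18 samples. In the P5 samples they summed to 8387 to 9699 CPM. The largest parts were Nefl, a neurofilament gene (1636 to 2134 CPM at E18, 2361 to 3462 CPM at P5), and Tubb3, a tubulin gene (2389 to 2778 and 1777 to 1875 CPM). Similar sums hid differences in single markers. Isl1 had means of 557 CPM at E18 and 260 CPM at P5, and Slc17a6 of 282 and 744 CPM. Thy1, the target of the antibodies, had 247 and 553 CPM. Tubb3, Isl1, Slc17a6 and Thy1 are named after their values were seen. In bulk samples, fewer cells of a type and less RNA per cell cannot be told apart. E18 replicate 1 stands under a column name that lists 2 and 5 as further numbers, and genes of dividing cells were highest in that sample.

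Sparcl1 (NM_010097, ENSMUSG00000029309.7) lies on chromosome 5 of mm10 from 104079111 to 104113733 on the minus strand. Its level was 29.6, 21.2 and 22.9 CPM in E18 replicates 1, 3 and 4. In P5 replicates 6, 8 and 9 it was 305, 224 and 447 CPM. Every P5 sample lay above every E18 sample, and the lowest P5 value was 7.56 times the highest E18 value. The means were 24.6 ± 4.44 CPM at E18 and 325 ± 113 CPM at P5 (SD, n = 3 each), a 13.2-fold difference. The log2 fold change of E18 over P5 was -3.73 (standard error 0.26), below all but 0.413% of the 16449 genes fitted. Within the whole group of 10 genes, Sparcl1 made up 2.84% to 4.24% of the summed CPM at E18 and 19.2% to 27.8% at P5.

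Sparc, the founding gene of the family, lies on chromosome 11 of mm10 from 55394500 to 55423183 on the minus strand. It had 7.38, 3.59 and 3.56 CPM in E18 replicates 1, 3 and 4, and 20.7, 16.9 and 32.8 CPM in P5 replicates 6, 8 and 9. The ages did not overlap, although E18 replicate 1 stood above the other E18 samples, at 2.08 times the lowest. The means were 4.84 ± 2.20 CPM and 23.5 ± 8.30 CPM (SD, n = 3 each), a 4.85-fold higher level at P5, with a log2 fold change of -2.28 (standard error 0.34). Per kilobase of transcript, the level of Sparcl1 was 3.34 to 5.38 times that of Sparc in the E18 samples and 11 to 12.3 times in the P5 samples. This ratio of transcript levels was higher in each P5 sample than in any E18 sample, and it takes in the difference on which Sparcl1 was selected.

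Of the thrombospondin genes, Thbs2 differed most between the ages. It lies on chromosome 17 of mm10 from 14665500 to 14694235 on the minus strand. Its counts were 43, 67 and 85 reads in E18 replicates 1, 3 and 4, and 482, 313 and 860 reads in P5 replicates 6, 8 and 9. In CPM these were 0.518, 0.598 and 0.939 at E18 and 5.44, 3.18 and 9.14 at P5. All P5 samples lay above all E18 samples, and the means were 0.685 ± 0.223 CPM and 5.92 ± 3.01 CPM (SD, n = 3 each), 8.64-fold higher at P5 (log2 fold change -3.11, standard error 0.41). Thbs1, on chromosome 2 of mm10 from 118111876 to 118127133, had 5.87, 4.15 and 5.04 CPM at E18 and 6.43, 4.74 and 6.73 CPM at P5. Its values overlapped between the ages, and the log2 fold change was -0.25 (standard error 0.20). Exons of Thbs1 share 208 bases with those of Gm29233 on the opposite strand, and whether reads were counted by strand is not stated. Per kilobase, the level of Thbs1 was 5.41 to 11.4 times that of Thbs2 at E18 and 0.742 to 1.5 times at P5. The pair was therefore far apart in the E18 samples and about level in the P5 samples. Thbs4 was near the limit of detection, with 10, 18 and 5 reads at E18 and 5, 1 and 6 reads at P5.

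The testican genes were the most abundant of the group per kilobase at E18 and did not share a direction. Spock2, on chromosome 10 of mm10, had 441, 431 and 562 CPM in E18 replicates 1, 3 and 4, and 638, 665 and 773 CPM in P5 replicates 6, 8 and 9. The P5 samples lay above the E18 samples by a narrow margin, the lowest P5 value being 1.13 times the highest E18 value, and the log2 fold change was -0.53 (standard error 0.13). Spock3, on chromosome 8, had 81.3, 98.0 and 95.4 CPM at E18 and 216, 155 and 255 CPM at P5. Its mean was 2.28-fold higher at P5 without overlap between the ages (log2 fold change -1.19, standard error 0.17). Spock1, on chromosome 13, showed the opposite pattern, with 113, 129 and 102 CPM at E18 and 62.6, 75.2 and 71.3 CPM at P5. Its mean was 1.64-fold higher at E18, again without overlap (log2 fold change 0.72, standard error 0.12). Per kilobase, the level of Spock1 was 0.740 to 0.965 times that of Spock3 in the E18 samples and 0.194 to 0.336 times in the P5 samples. A pair that stood near parity at E18 was thus unequal in each of the P5 samples.

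The Smoc genes did not separate the ages. Smoc1, on chromosome 12 of mm10, had 19.4, 18 and 14.9 CPM at E18 and 21.1, 21.3 and 15.7 CPM at P5, which overlapped (log2 fold change -0.15, standard error 0.16). Smoc2, on chromosome 17, had 0, 7 and 2 reads at E18 and 3, 9 and 11 reads at P5. A count of 0 in E18 replicate 1 allows up to 3 reads, or 0.0362 CPM, in that sample. Smoc2 and Thbs4 did not pass the filter on low counts, and no fold change is given for them.

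**Figure D1:**
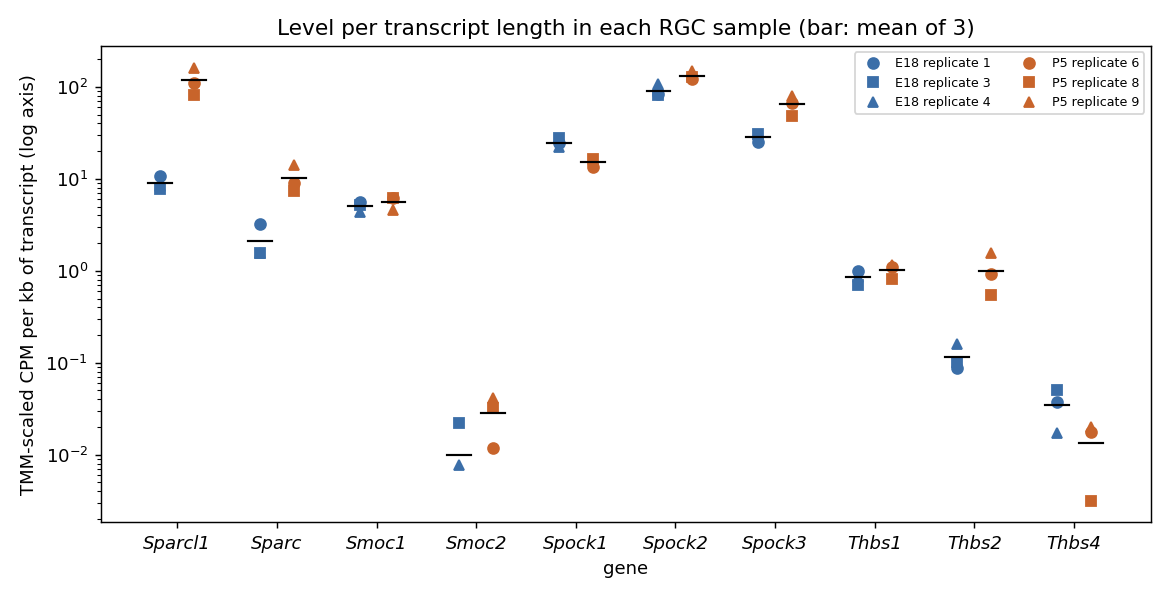
Level of each of the 10 genes in TMM-scaled CPM per kilobase of transcript, on a log axis, in the 3 E18 samples (blue) and the 3 P5 samples (orange), with bars at the means. The 0 of Smoc2 in E18 replicate 1 cannot be drawn on a log axis. Sparcl1 has a mean of 8.90 at E18 and 118 at P5, whereas Smoc1 and Thbs1 overlap.

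In all, 5 of the 10 genes had every P5 sample above every E18 sample, as had 28.5% of all genes fitted. One gene, Spock1, had every E18 sample above every P5 sample, as had 27.6% of all genes fitted. The remaining 4 genes overlapped between the ages, and 2 of these were the genes with too few reads. Since the group was built around Sparcl1, nothing is read from these counts.

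**Figure D2:**
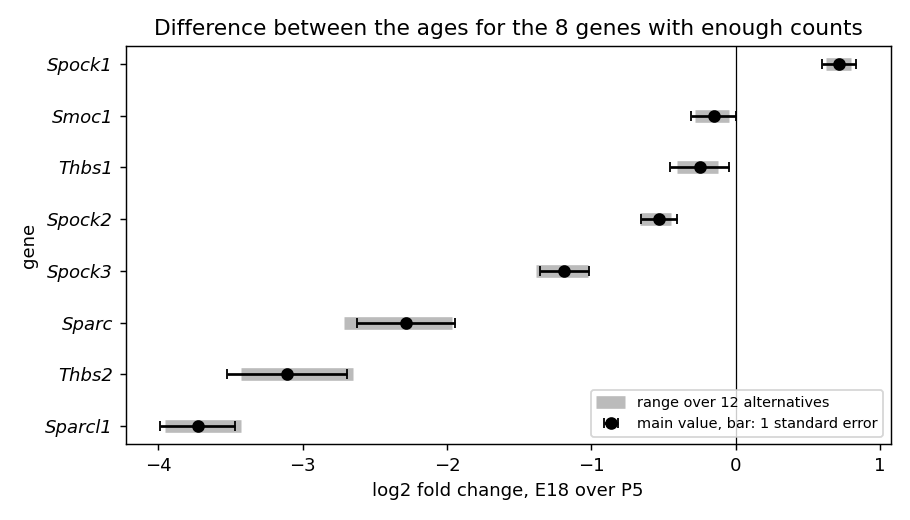
The log2 fold change of E18 over P5 for the 8 genes that passed the filter on low counts, with 1 standard error, and in grey the range over 12 alternative fits. Values left of 0 were higher at P5, from Sparcl1 at -3.73 to Smoc1 at -0.15, and Spock1 stands alone to the right at 0.72.

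Levels can be compared between genes only per transcript length. On the scale of CPM per kilobase, the E18 means ran from Spock2 (91.3 ± 14.0) through Spock3 (28.6 ± 2.80), Spock1 (24.8 ± 2.94), Sparcl1 (8.90 ± 1.61), Smoc1 (5.07 ± 0.674) and Sparc (2.11 ± 0.955) to Thbs1 (0.858 ± 0.147) and Thbs2 (0.116 ± 0.0379; SD, n = 3 each). Among neighbours in this order, Spock3 and Spock1 overlapped between samples. At P5 the order was Spock2 (132 ± 13.7), Sparcl1 (118 ± 41.0), Spock3 (65.2 ± 15.7), Spock1 (15.1 ± 1.39), Sparc (10.2 ± 3.61), Smoc1 (5.63 ± 0.923), Thbs1 (1.02 ± 0.183) and Thbs2 (1.00 ± 0.511; SD, n = 3 each). Here Spock2 and Sparcl1 overlapped, as did Spock1 and Sparc, and Thbs1 and Thbs2. Thbs4 and Smoc2 came last at both ages, below 0.06 CPM per kilobase in each sample. Among 17489 genes with counts and a matched transcript, the level of Sparcl1 per kilobase stood at percentile 63.1 at E18 and percentile 97.4 at P5. Sparc moved from percentile 44.2 to percentile 65.7, whereas Smoc1 stayed between percentiles 54.0 and 55.6.

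Samples of the same age also differed in these genes. This comparison is not independent of the choice of the group, since Sparcl1 was selected on values that include the same P5 samples. At P5, replicate 8 was lowest and replicate 9 highest in Sparcl1, Sparc, Spock3, Thbs1 and Thbs2, that is in 5 of the 8 genes fitted, as in 22.1% of all genes fitted. Thbs4, with few reads, had the same order. Sparcl1, Sparc, Spock3 and Thbs2 were also higher at P5, and the share of this order among genes higher at P5 was not computed. The highest P5 sample was 2.88 times the lowest for Thbs2, 2.0 times for Sparcl1, 1.94 times for Sparc and 1.64 times for Spock3. Spock1 and Spock2 varied least at P5, by 1.2 and 1.21 times. Nefh, a neurofilament gene of maturing neurons, and Slc17a6, the vesicular glutamate transporter of RGCs, had the same order among the P5 samples. Nefh had 55.95, 41.3 and 96.8 CPM in P5 replicates 6, 8 and 9, and Slc17a6 had 762, 531 and 939 CPM. Of the 13 RGC genes, 5 had this order, whereas 7, among them Pou4f1 (536, 712 and 483 CPM) and Isl1 (262, 309 and 207 CPM), transcription factor genes of RGCs, were lowest in replicate 9. These 4 genes are named after their values were seen, and their part in the spread of the Sparcl1 group was not tested. At E18, the order of the samples differed from gene to gene. Replicate 1 was highest in Sparcl1, Sparc, Smoc1 and Thbs1, and lowest in Thbs2 and Spock3.

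**Figure D3:**
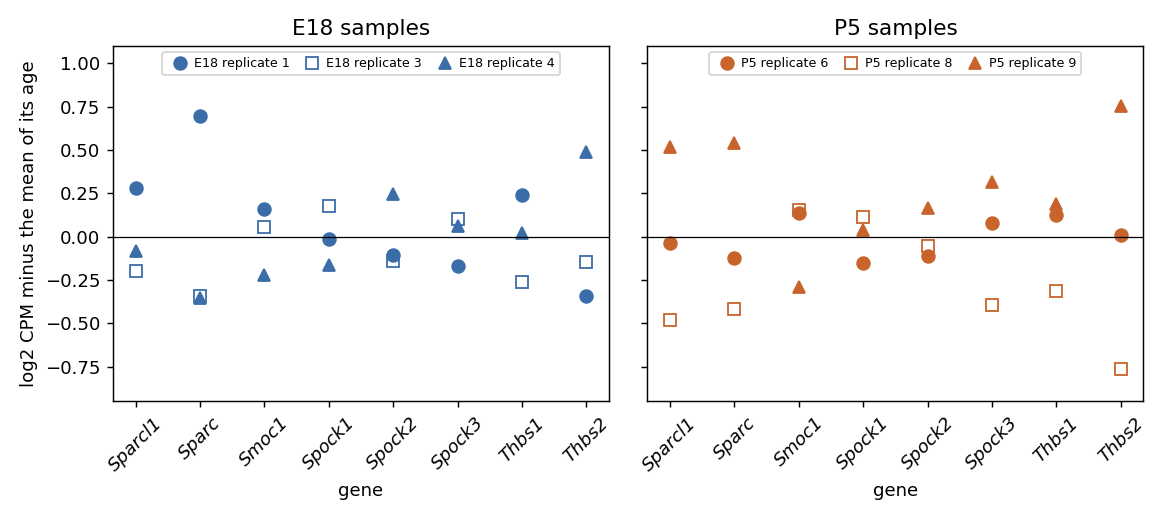
Deviation of each sample from the mean of its own age, in log2 CPM, for the 8 genes that passed the filter on low counts, with E18 samples on the left and P5 samples on the right. P5 replicate 9 lies highest and P5 replicate 8 lowest for Sparcl1, Sparc, Spock3, Thbs1 and Thbs2, and Smoc1 has replicate 9 lowest.

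Sparcl1, Sparc and the thrombospondins are also made by glia and by cells of blood vessels, so the markers of those cells are set beside them. Of the 14 genes of astrocytes and Müller glia, 11 were fitted, 3 were higher and 2 lower at E18 by edgeR's quasi-likelihood test. Those higher at E18 were Slc1a2, Glul and Sox9 (edgeR adjusted p = 0.00787, 0.0138 and 0.0294). Those lower were Aldoc and Dkk3 (edgeR adjusted p = 0.00823 and 0.0187). Sox9 had 1.82, 0.580 and 0.188 CPM in E18 replicates 1, 3 and 4, against 0.160 to 0.192 CPM at P5. Its ages overlapped, and E18 replicate 1 stood far above the other samples. The summed level of the 14 genes was 462 to 561 CPM at E18 and 496 to 532 CPM at P5, and Glul and Dkk3 held 81.2% to 90.4% of it. Without these genes, chosen after their values were seen, the remaining 12 had 82.8, 59.0 and 54.0 CPM in E18 replicates 1, 3 and 4, and 78.5, 48.7 and 100.1 CPM in P5 replicates 6, 8 and 9. Aldoc, an aldolase gene of astrocytes, made up much of this remainder and moved with Sparcl1, with 16.5 to 18.2 CPM at E18 and 43.2, 23.5 and 66.0 CPM in P5 replicates 6, 8 and 9 (log2 fold change -1.35, edgeR adjusted p = 0.00823). Without Aldoc, also left out after its values were seen, the other 11 genes had 36.7 to 64.5 CPM at E18 and 35.3, 25.2 and 34.1 CPM in the P5 samples. Most of this was Slc1a2, with 29.8 to 36.3 CPM at E18 and 18.7 to 23.7 CPM at P5. Slc1a3 added 16.2 CPM in E18 replicate 1 and at most 2.80 CPM in any other sample. The genes left out include Aldoc and Dkk3, both lower at E18, and Glul, which was higher. The remainder thus depends on which genes are left out. S100b, a calcium-binding protein gene of glia, had 0.497 to 0.796 CPM at E18 and 0.970 to 2.39 CPM at P5 without overlap, but did not pass (edgeR adjusted p = 0.0542). Aldoc, S100b, Slc1a2, Slc1a3 and Sox9 are named after their values were seen. The astrocyte genes Gfap, Gja1, Pax2 and Aqp4 together reached 0.453 to 0.808 CPM at E18 and 0.457 to 0.609 CPM at P5. The sum of these 4 genes overlapped between the ages. Aldh1l1, another astrocyte gene, had a mean of 2.91 CPM at E18 and 2.19 CPM at P5. Rlbp1, a gene of Müller glia, had 1.13 to 2.72 CPM at E18 and 1.70 to 4.22 CPM at P5.

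Of the 11 endothelial and pericyte genes, 9 were fitted, 1 was higher and 3 were lower at E18 by edgeR's quasi-likelihood test. Their summed level was 73.7, 65.3 and 17.4 CPM in E18 replicates 1, 3 and 4 and 16.1 to 19.25 CPM at P5. Kdr, the gene of a vascular growth factor receptor, made up most of the E18 values. Rgs5, a pericyte gene, had 0.0964 to 0.132 CPM at E18 and 1.47 to 3.08 CPM at P5 (log2 fold change -4.36, standard error 0.37, edgeR adjusted p = 0.000166). The other pericyte genes fitted did not pass, with mean levels of 0.350 CPM at E18 and 0.166 CPM at P5 for Pdgfrb and of 0.184 CPM and 0.204 CPM for Cspg4, both named after their values were seen (edgeR adjusted p = 0.300 and 0.791). Pecam1, an endothelial adhesion gene, had 0.562 to 0.895 CPM at E18 and 2.09 to 2.67 CPM at P5 (log2 fold change -1.81, edgeR adjusted p = 0.00123). Tek, of the same list, had 0.544 to 1.01 CPM at E18 and 2.26 to 3.64 CPM at P5 (log2 fold change -1.80, edgeR adjusted p = 0.00239). Cdh5, which defines endothelium, had at most 0.0610 CPM in any sample. Tek and Cdh5 are named after their values were seen. The fibroblast gene Col1a1 had 0 to 0.145 CPM in all samples, and the 6 fibroblast and meningeal genes summed to 2.64 to 4.57 CPM. The part of any of these cells in the levels of Sparcl1, Sparc and Thbs2 was not tested.

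The other marker lists are given by their sums and by the number of genes past the threshold in edgeR's test. Of 13 RGC genes, 3 were higher and 5 lower at E18. The 9 microglial and macrophage genes summed to 1.76 to 3.22 CPM, with 1 gene higher at E18, and the 7 oligodendrocyte genes to 52.1 to 90.5 CPM, with 1 higher and 1 lower. The 9 photoreceptor genes summed to 3.77 to 11.5 CPM (3 higher, 1 lower), the 8 bipolar genes to 50.0 to 97.7 CPM (2 higher, 2 lower) and the 9 amacrine genes to 975 to 1286 CPM (4 higher, 1 lower). The 11 genes of dividing cells, of which 7 were higher, summed to 336, 135 and 82.8 CPM in E18 replicates 1, 3 and 4 and to 64.6 to 81.6 CPM at P5.

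Genes that work with the group but do not belong to it were examined in 7 lists with 71 genes, of which 67 had enough reads to be tested. By edgeR's quasi-likelihood test, 12 were higher and 22 lower at E18, or 17.9% and 32.8%, against 20.8% and 22.5% of all 16449 genes tested. In both directions together it was 50.7% against 43.4%, and the difference was not tested. The median log2 fold change of the 67 genes was -0.06, against 0.00 over all genes tested.

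Hevin acts on the neurexin and neuroligin pair at the synapse. Of 8 genes encoding neurexins, neuroligins and their MDGA regulators, 2 passed the test, both of them lower at E18, and the median log2 fold change was -0.07. Nlgn1, which encodes a neuroligin, had 125 to 131 CPM at E18 and 128 to 140.4 CPM at P5 and did not pass (log2 fold change -0.09, edgeR adjusted p = 0.412). Nlgn1 was thus present at each age, with values that overlapped. Nrxn2 rose from 143.9 ± 21.7 CPM at E18 to 232 ± 28 CPM at P5 (SD, n = 3 each; log2 fold change -0.69, edgeR adjusted p = 0.00420). The same direction was seen for Nlgn3 (log2 fold change -0.38, edgeR adjusted p = 0.0256), a call that was lost without E18 replicate 1 (adjusted p = 0.0846), E18 replicate 3 (0.112) or P5 replicate 9 (0.0754).

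Among receptors of thrombospondins and SPARC, 14 genes were examined and 13 tested. Of these, 5 were lower at E18, 1 was higher and 7 did not pass (without P5 replicate 6, 2 were higher), and the median log2 fold change was -0.22. Cacna2d1, the thrombospondin receptor at the synapse, had 86.8, 104 and 84.2 CPM in E18 replicates 1, 3 and 4, and 158.5, 161 and 219.6 CPM in P5 replicates 6, 8 and 9. The ages did not overlap, and the log2 fold change was -0.97 (standard error 0.15, edgeR adjusted p = 0.00146). Its relative Cacna2d2 changed alike (log2 fold change -0.74, edgeR adjusted p = 0.00467). Cd47, an immunoglobulin-like receptor of the thrombospondins, had 18.7 to 21.6 CPM at E18 and 27.8 to 36.4 CPM at P5 (log2 fold change -0.71, edgeR adjusted p = 0.00355). Itgb1, the integrin chain shared by many matrix receptors, had 139 to 162 CPM at E18 and 266 to 314 CPM at P5 (log2 fold change -0.91, edgeR adjusted p = 0.000440). Itgav also passed, at -0.47, but not without E18 replicate 3, E18 replicate 4, P5 replicate 6 or P5 replicate 9 (adjusted p = 0.0838 to 0.142). The gene that was higher at E18 was Lrp1, an endocytic receptor that clears thrombospondins, with a log2 fold change of 0.52 (edgeR adjusted p = 0.00412). Itgav and Lrp1 are named after their values were seen.

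**Figure D4:**
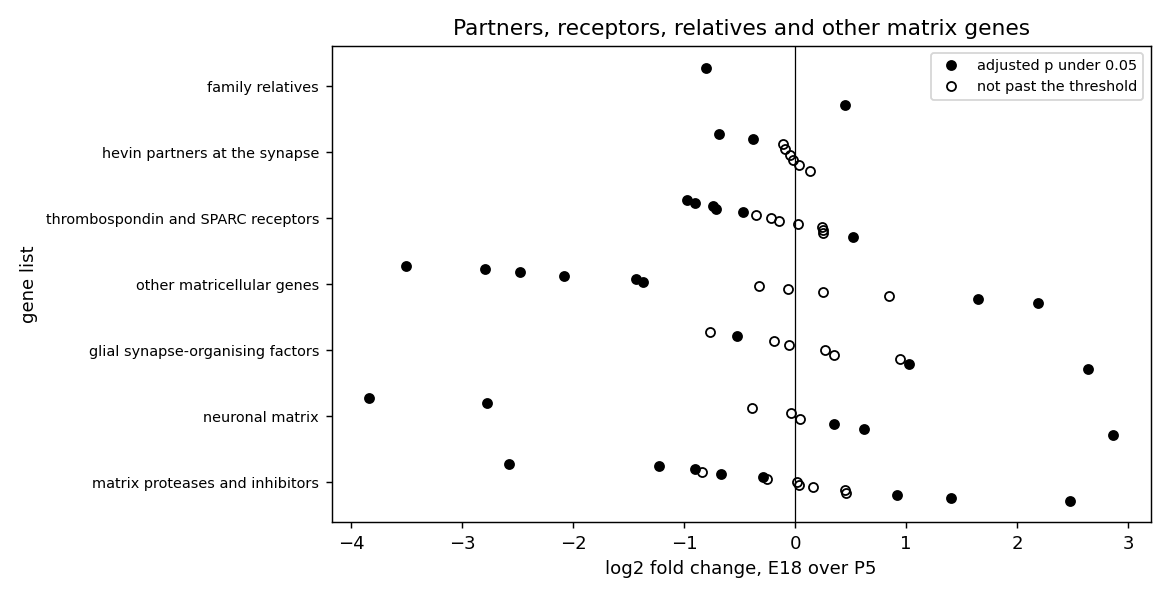
The log2 fold change of E18 over P5 for the 67 tested genes of the 7 lists, 1 point per gene, filled where the adjusted p was under 0.05 in edgeR's quasi-likelihood test. Most filled points among the receptors lie left of 0, where P5 is higher, and the proteases and neuronal matrix genes lie on both sides.

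Relatives outside the group did not share a direction. Fstl1, a follistatin-like gene of the SPARC family, had 37.9 to 40.5 CPM at E18 and 52.3 to 85.6 CPM at P5 (log2 fold change -0.80, edgeR adjusted p = 0.00507). Thbs3, which encodes another thrombospondin, was higher at E18 (log2 fold change 0.45, edgeR adjusted p = 0.0357). The call of Thbs3 was lost without E18 replicate 1 or 4 or without P5 replicate 6 or 9 (adjusted p = 0.0718 to 0.134). Comp, the cartilage thrombospondin, had 31 reads over all samples together and was not tested.

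Among 13 other matricellular genes, 12 were tested, 6 were lower at E18 and 2 were higher, with a median log2 fold change of -0.85. Tnc and Tnr, the tenascin genes, were lower at E18 by log2 fold changes of -1.37 and -1.43 (edgeR adjusted p = 0.00303 and 0.0120). Postn, which encodes periostin, had 0.303 to 0.446 CPM at E18 and 1.24 to 2.92 CPM at P5 (log2 fold change -2.48, edgeR adjusted p = 0.00130). Cyr61, an early response gene, passed as higher at E18 at 2.19, but 19.5 CPM in E18 replicate 1 stood against 3.74 and 2.43 CPM in replicates 3 and 4. Without E18 replicate 1 the log2 fold change of Cyr61 was 0.73 (adjusted p = 0.155), and the call was also lost without any one of the P5 samples (adjusted p = 0.0740 to 0.117). The other gene called higher, Tgfbi, which is named after its value was seen, lost its call without E18 replicate 1 or 3 or any one P5 sample (adjusted p = 0.0896 to 0.187).

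Of 9 further factors by which glia organise synapses, 2 were higher and 1 was lower at E18, with a median log2 fold change of 0.27. Mdk, the gene of midkine, a heparin-binding growth factor, was higher at E18 by 2.64 (edgeR adjusted p = 0.00487), with 4.98, 3.37 and 1.01 CPM in E18 replicates 1, 3 and 4. Chrdl1, an inhibitor of BMP signalling, was higher by 1.03 (edgeR adjusted p = 0.0427) and lost its call without E18 replicate 1 or 3 or P5 replicate 8 or 9 (adjusted p = 0.0926 to 0.137). Gpc6, a glypican gene, was lower by -0.52 (edgeR adjusted p = 0.0468), and it lost its call without any one of the 6 samples (adjusted p = 0.0513 to 0.115). Of these glial factors, the direction of Sparcl1 was thus shown only by Gpc6 among genes past the threshold.

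Among 8 genes of the neuronal matrix, 3 were higher and 2 lower at E18, with a median log2 fold change of 0.01. Hapln1, which encodes a link protein of perineuronal nets, had 0.221 to 0.321 CPM at E18 and 1.77 to 6.64 CPM at P5 (log2 fold change -3.84, edgeR adjusted p = 0.000845), and without P5 replicate 9 its log2 fold change was -3.15. Vcan, the gene of versican, showed the reverse, with 154.5 to 403 CPM at E18 and 19.25 to 52.1 CPM at P5 (log2 fold change 2.87, edgeR adjusted p = 0.00130). Agrn, the gene of agrin, was higher at E18 by 0.62 (edgeR adjusted p = 0.00217). Reln, the gene of reelin, was higher by 0.35 (edgeR adjusted p = 0.0259), without a call when E18 replicate 3 or 4 or P5 replicate 6 or 9 was left out (adjusted p = 0.0559 to 0.0896).

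Proteases that cut matrix proteins, together with their inhibitors, made up the last list. Of 16 genes, 15 were tested, 3 were higher and 5 lower at E18, with a median log2 fold change of 0.02. Mmp14, a membrane-bound metalloprotease, had 16.3 to 21.6 CPM at E18 and 2.96 to 3.70 CPM at P5 (log2 fold change 2.47, standard error 0.17, edgeR adjusted p = 9.1e-05). Adamts1, a secreted protease, was also higher at E18, by 1.41 (edgeR adjusted p = 0.00169). In contrast, Mmp9, a secreted gelatinase, was lower at E18 by -2.57 (edgeR adjusted p = 0.00183) and Timp2, an inhibitor of metalloproteases, by -1.22 (edgeR adjusted p = 0.000336). Timp4 and Ctsl, named after their values were seen, lost their calls without E18 replicate 3 or E18 replicate 4, among others, which left 3 genes lower. Adamts4, whose protease can cut hevin, had 15.4 to 15.9 CPM at E18 and 15.6 to 20.7 CPM at P5 and did not pass (edgeR adjusted p = 0.142).

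The gene with the profile nearest to that of Sparcl1 was sought among 13418 genes outside the group with a mean of at least 1 CPM. The measure was the root mean square difference of log2 CPM over the 6 samples, each gene centred on its own mean. The nearest were Dync1i1 (0.150), Npsr1 (0.152), 4833423E24Rik (0.168), Akr1b10 (0.194) and Alox8 (0.200), where 0 is an identical profile. Dync1i1, which encodes an intermediate chain of dynein, had 3.62 to 3.98 CPM at E18 and 34.9 to 83.5 CPM at P5, lowest in replicate 8 and highest in replicate 9. The other nearest genes stayed at or below 5.06 CPM in each sample. Within the Sparcl1 group, Thbs2 was nearest to Sparcl1 at 0.514 and Sparc was next at 0.721, and Spock1 was farthest at 2.23. Set among the 13418 genes outside the group, Thbs2 would rank 66 and Sparc 150. The measure also takes in the difference between the ages on which Sparcl1 was selected.

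**Figure D5:**
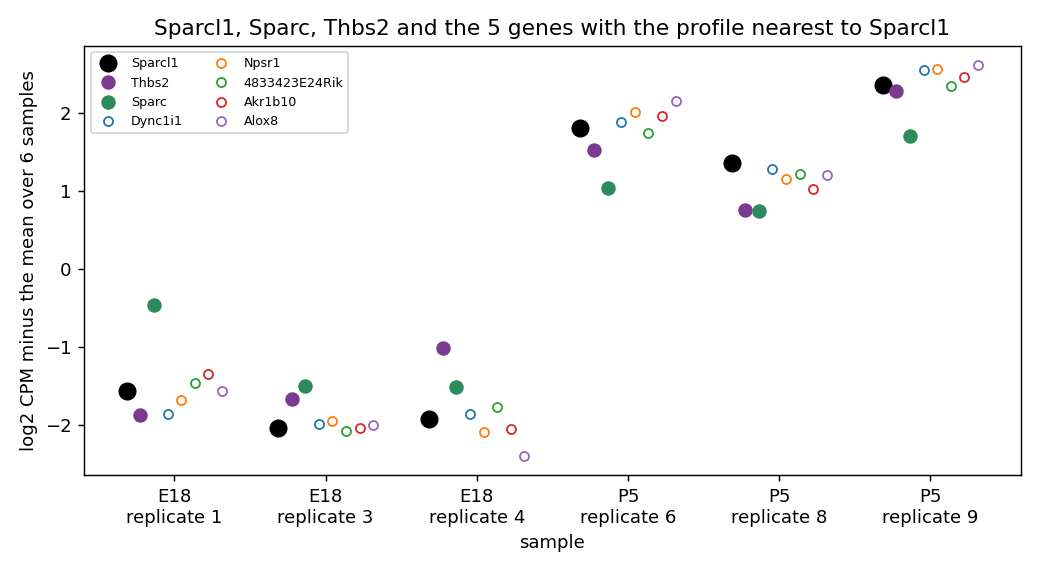
Log2 CPM in each sample, centred on the mean over the 6 samples, for Sparcl1 (black), Thbs2, Sparc and the 5 genes with the nearest profile (open circles). In every gene the 3 P5 samples lie above the 3 E18 samples, and P5 replicate 9 is the highest sample.

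Start sites were described for the members with an upstream sequence in the RefSeq table of GRCm38.p6, the assembly named mm10. A window was found for 6 of the 10 genes, and those of Thbs2, which was higher at P5, and of Spock1, which was higher at E18, are shown. Each holds the 250 bases before the start site on the strand of the gene, chr17:14694263-14694512 (minus) for Thbs2 and chr13:57908333-57908582 (minus) for Spock1. Capitals mark matches on either strand to the GC box GGGCGG, the TATA box TATAAA, the CCAAT box CCAAT, the AP-1 site TGANTCA or the Ets site CCGGAAG, the core bound by Elk-1.
Thbs2: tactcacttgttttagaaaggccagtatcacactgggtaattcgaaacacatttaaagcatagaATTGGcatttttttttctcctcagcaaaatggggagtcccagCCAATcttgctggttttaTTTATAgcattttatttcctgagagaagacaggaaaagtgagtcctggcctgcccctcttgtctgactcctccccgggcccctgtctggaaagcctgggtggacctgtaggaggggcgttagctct
Spock1: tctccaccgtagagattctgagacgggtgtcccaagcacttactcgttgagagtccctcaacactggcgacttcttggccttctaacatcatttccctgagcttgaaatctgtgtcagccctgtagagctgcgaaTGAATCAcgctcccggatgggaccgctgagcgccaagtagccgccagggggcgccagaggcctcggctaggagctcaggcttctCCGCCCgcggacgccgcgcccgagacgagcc

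The windows held few of these motifs. The Thbs2 window matched the CCAAT box at 2 places and the TATA box at 1 place. The Spock1 window matched the GC box and the AP-1 site at 1 place each. Among 32817 windows of the same length, 33.8% held a CCAAT box, 32.7% a GC box, 12.4% a TATA box, 6.90% the Ets site and 6.75% the AP-1 site. GC content was 46.8% for Thbs2 and 61.2% for Spock1, against a median of 52.4%. A match describes the letters of the window and not the binding of a factor.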

How the data were processed

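RGCs from E18 and P5 mice were sequenced after ribosomal RNA depletion, although the sample labels name polyA RNA. Alignment by the authors was to mm10 with STAR, HT-seq gave the counts over RefSeq annotation, and these raw counts were deposited. The labels also name CASAVA 1.8.2. The normalized counts deposited by the authors are a signal scaled for library size and were not used. Fold changes, p-values and a rank of the authors' own EdgeR comparison stand in the same table, with 3 columns that set each E18 sample against P5, and none of them was used. The strand setting and the treatment of reads that fit several genes are not stated.

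Samples were grouped by the age in their titles. Counts were scaled by TMM, filtered with filterByExpr (16449 of 24060 genes) and compared by quasi-likelihood fits (edgeR 4.0.16, R 4.3.3), with Benjamini-Hochberg adjustment over all genes tested and a threshold of 0.05. CPM was computed from TMM-scaled library sizes, and CPM per kilobase from the GENCODE M21 transcript matched to the RefSeq identifier of the gene, which also gave positions. The log2 CPM of the profile comparison used a prior count of 2. Standard errors were derived from the quasi-likelihood test, as the absolute log2 fold change divided by the square root of its F statistic. Tested on simulated data for this comparison (16286 genes, 200 changed 2-fold), the test recovered 146 of the 200 and called 14 others. In this run the share of false calls among all calls was thus above the threshold of 0.05. The changed genes all had a mean of at least 1 CPM, so recovery below that level was not measured. Their share was also far below the 43.4% of genes called in the data. Between samples of one age, chi-square per degree of freedom was 30.5 to 141, so every pair differed by more than sampling noise. No label says that samples came from separate animals, so p-values measure the spread between these samples. Intervals and limits for counts of 0 cover counting error only.

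The 10 genes, the 7 lists of partners and the 10 marker lists were chosen with earlier results of these data known. The genes named are the 10 members, their relatives, Nlgn1, Cacna2d1 and Cd47, up to 4 changed genes of each list with the largest fold change and a mean of at least 1 CPM, the defining markers with the most abundant of the RGC, glial and vascular lists, and the 5 nearest profiles. Protein sequences were not used here, and 1 gene of the rule is not reported here. Alternatives were DESeq2 1.42.0, RLE and upper-quartile normalization, other filters, edgeR's likelihood ratio test and the omission of each sample.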

Additional observations from a re-analysis of the deposited data

How the results depend on the processing

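No paired analysis was possible because the ages share no replicate number. The log2 fold change of Sparcl1 ranged from -3.95 to -3.43 over the 12 alternatives, the first without P5 replicate 8 and the second without P5 replicate 9. The other 7 genes of the group that passed the filter kept their sign in all 12, with Sparc at -2.71 to -1.97, Thbs2 at -3.43 to -2.65, Spock3 at -1.38 to -1.02, Spock2 at -0.67 to -0.45, Thbs1 at -0.41 to -0.13, Smoc1 at -0.28 to -0.05 and Spock1 at 0.63 to 0.80. The number of genes changed across the table was 7135 and ranged from 4575 without E18 replicate 3 to 8796 without P5 replicate 8, and DESeq2 called 7634. Of the 34 called genes in the 7 lists, 23 kept their call and direction under every alternative in which they were tested, 11 lost the call under at least one and none reversed; leaving out 1 sample gave 25 to 34 calls. Of these losses, Gpc6, Itgav, Ctsl and Tgfbi also lost their calls with upper-quartile normalization. Other processing choices cost calls as well. With RLE normalization Tgfbi did not pass (edgeR adjusted p = 0.05006). Among the proteases and inhibitors, 5 genes were lower at E18 in the main fit, 4 with RLE normalization and 3 without a filter on low counts. Depth limited Smoc2 and Thbs4, with 32 and 45 reads over all samples.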
